A study of Mus musculus with 2 samples.

Results

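Cxcl1, Cxcl2, Cxcl3, Cxcl5 and Cxcl15 encode CXC chemokines that attract neutrophils, and their mRNA was followed through the cell classes of omental tumors in C57BL/6J mice. The genes were chosen by symbol, as 5 of the 32285 genes in the single cell matrices. The tumors grew for 10 days from KPCA cells, a mouse model of high-grade serous ovarian cancer made from fallopian tube epithelium with engineered changes that include mutated Trp53 and overexpressed Ccne1 and Akt2. In both groups the grafted cells lacked Fst, the gene of the activin antagonist follistatin. The KPCA_FSTKO group carried only that deletion, and the KPCA_FSTKO_hFSTL3 group also carried a human FSTL3 plasmid, in a single clone selected with geneticin. Each group was 1 library from 4 pooled tumors of female mice aged 12 to 16 weeks. With 1 library per group no test of the groups is possible, and every interval below is a 95% interval that covers counting error only.

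CXC chemokines with a Glu-Leu-Arg motif before the first cysteines bind Cxcr2 on neutrophils and guide them from blood into inflamed tissue. Their genes respond to interleukin 1, tumor necrosis factor and microbial products through NF-kB, and their mRNAs are short-lived, being held down by decay factors such as Zfp36. Cxcl1 (KC) and Cxcl2 (MIP-2) are the best known mouse ligands, Cxcl3 is their close relative, Cxcl5 (LIX) is made mainly by epithelium and stroma, and Cxcl15 (lungkine) was first known from lung epithelium. In tumors such ligands are known for bringing in neutrophils and other myeloid cells that carry Cxcr2.

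All 5 genes are protein coding and lie on the plus strand of chromosome 5 within 146.579 kb (GRCm38), in the order Cxcl5 (ENSMUSG00000029371, 90759360 to 90761624), Cxcl3 (ENSMUSG00000029379, 90786103 to 90789600), Cxcl15 (ENSMUSG00000029375, 90794534 to 90803067), Cxcl1 (ENSMUSG00000029380, 90891241 to 90893115) and Cxcl2 (ENSMUSG00000058427, 90903871 to 90905938). Because the members are known targets of NF-kB, and their mRNA is set beside NF-kB response genes below, the sequence just before their starts is shown for the 4 members in the RefSeq promoter table (GRCm38.p6), 5′ to 3′ on the plus strand, each ending before the annotated gene. Capitals mark the letters GGGAATTTCCC, where an NF-kB motif, GGGA then any 2 bases then TTCC, matches on both strands, the 2 matches overlapping in all but 1 base.
Cxcl3, chr5:90785851-90786100: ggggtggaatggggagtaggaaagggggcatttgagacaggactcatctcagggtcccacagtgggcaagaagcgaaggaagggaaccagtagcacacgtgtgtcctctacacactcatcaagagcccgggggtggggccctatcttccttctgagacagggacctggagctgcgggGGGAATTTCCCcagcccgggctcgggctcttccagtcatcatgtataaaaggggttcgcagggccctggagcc
Cxcl15, chr5:90794284-90794533: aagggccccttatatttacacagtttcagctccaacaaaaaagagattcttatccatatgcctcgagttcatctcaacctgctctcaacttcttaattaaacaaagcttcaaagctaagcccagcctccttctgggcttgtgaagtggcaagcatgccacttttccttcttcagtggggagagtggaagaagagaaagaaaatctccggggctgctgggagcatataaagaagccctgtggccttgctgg
Cxcl1, chr5:90890995-90891240: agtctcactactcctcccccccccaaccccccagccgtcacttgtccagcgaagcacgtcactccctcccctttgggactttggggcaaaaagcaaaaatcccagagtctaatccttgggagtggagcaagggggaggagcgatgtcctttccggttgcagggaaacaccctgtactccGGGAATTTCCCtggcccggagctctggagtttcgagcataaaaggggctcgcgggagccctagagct
Cxcl2, chr5:90903649-90903870: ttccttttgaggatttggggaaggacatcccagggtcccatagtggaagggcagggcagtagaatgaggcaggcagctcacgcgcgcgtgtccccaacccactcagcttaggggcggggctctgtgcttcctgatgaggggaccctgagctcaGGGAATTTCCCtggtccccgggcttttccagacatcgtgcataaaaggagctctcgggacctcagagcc
The motif was present in 3 of these 4 sequences, 62 bases before the RefSeq start in Cxcl1, 64 bases in Cxcl3 and 88 bases in Cxcl2, and its letters were not in the window of Cxcl15. Among all 32851 promoters of 250 bases, 397 (1.21%) held it on either strand. A match is a description of letters and not evidence of binding. Transcripts of Cxcl2 and Cxcl3 shared an exact run of 110 bases, 1687 and 850 bases from their 3′ ends, so reads from that stretch cannot be assigned to either gene; the longest run shared by any other pair was 23 bases.

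After the filters, 6777 barcodes with 142160061 unique molecular identifiers (UMIs, each a counted mRNA molecule) remained in KPCA_FSTKO and 4041 barcodes with 69751304 UMIs in KPCA_FSTKO_hFSTL3. Barcodes were gated by marker genes of 11 cell classes, none of them a member or its receptor. In KPCA_FSTKO the gates held 3061 cancer, 792 macrophage and monocyte, 353 fibroblast, 102 neutrophil, 85 erythroid, 65 endothelial and 47 T and NK barcodes, whereas 676 passed several gates and 1561 none. The KPCA_FSTKO_hFSTL3 library stood apart: 2741 of its barcodes (67.8%) passed several gates, leaving 222 cancer, 140 macrophage, 52 fibroblast and 113 erythroid barcodes and no neutrophil barcode, which allows a share of up to 0.0742% for barcodes of that gate alone. Another 23 of its barcodes passed the neutrophil gate together with others, and 4 ungated ones were 1 marker short of it, so the missing class does not show that neutrophils were absent. Its median barcode held 10 pancreatic acinar genes at 5584 CPM (UMIs scaled to a total of 1e6), against 0 in KPCA_FSTKO, and a mitochondrial share of 10.7% against 3.54%. Only 10 of the filtered barcode sequences occurred in both libraries. Pax8, an epithelial gene of the fallopian tube that no gate used, stood at 9.08 CPM in cancer barcodes of KPCA_FSTKO and 25.5 CPM in those of KPCA_FSTKO_hFSTL3, against 0.540 and 0.768 CPM in macrophages. Epcam, which the cancer gate did use, was low at 6.00 and 1.14 CPM in cancer barcodes. Fst, the deleted gene, still gave 5.21 CPM in cancer barcodes of KPCA_FSTKO and 7.27 CPM in those of KPCA_FSTKO_hFSTL3. A 3′ tag tests a deletion only if it lies in the deleted part, and the position of the deletion was not examined. Fibroblast barcodes of KPCA_FSTKO, which come from the host, held far more Fst, at 112 CPM in those with a Cxcl1 UMI and 100 CPM in those without. The part of RNA from other cells in the cancer values of Fst was not tested.

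Cxcl2 and Cxcl3 were highest in neutrophil-gated barcodes of KPCA_FSTKO. Cxcl2 reached 17527 CPM (17089 to 17973) there, 834 CPM (817 to 851) in macrophages, 94.9 CPM (92.9 to 96.8) in cancer barcodes and 73.7 CPM (67.1 to 80.7) in fibroblasts. Each of these 4 levels differed from its neighbor by more than the counting interval, which takes no account of the spread between barcodes. In fibroblasts 18 of 353 barcodes held 76.5% of the Cxcl2, and in the cancer class 154 of 3061 held 79.2%, so the order of these 2 classes is not settled. The neutrophil level was 21.0 times that of macrophages (20.4 to 21.7) and 185 times that of cancer barcodes (179 to 191). Cxcl3 stood at 2029 CPM (1881 to 2184) in neutrophils, 28.1 CPM (25.0 to 31.4) in macrophages, 9.51 CPM (8.90 to 10.1) in cancer barcodes and 1.44 CPM (0.660 to 2.74) in fibroblasts. The order of the summed levels was the same for both genes, with that limit for cancer barcodes and fibroblasts in Cxcl2. The drop from neutrophils to macrophages was steeper for Cxcl3, at 72.3-fold (63.2 to 82.9).

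The other members were close to or at 0 in the neutrophil barcodes. Cxcl1 had 0 of 346557 UMIs, which put it at least 2.26-fold lower than in macrophages, and Cxcl5 and Cxcl15 had 2 and 3 UMIs. Members past a 2-fold CPM ratio were thus Cxcl2 and Cxcl3 upward and Cxcl1 downward in neutrophils over macrophages, where 12.9% of all 8272 genes with at least 100 UMIs were higher and 23.6% lower. Over cancer barcodes Cxcl2 and Cxcl3 were higher (16.1% of 12640 genes) and Cxcl5 was lower (27% of genes), at 4.62-fold (1.28 to 38.2). The 10 neutrophil markers summed to 48901 CPM in this class and to between 3.94 and 206 CPM in cancer, macrophage and fibroblast barcodes. The 10 cancer markers summed to 1425 CPM in neutrophil barcodes, against 6009 CPM in cancer barcodes, so RNA of other classes was present in them. Neutrophil barcodes were shallow, with a median of 2687 UMIs, and held 0.244% of the library's UMIs. They nevertheless held 19.4% (19.0 to 19.9) of its Cxcl2 and 27.1% (25.4 to 28.9) of its Cxcl3.

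Cxcl1 was highest in fibroblasts in both libraries. In KPCA_FSTKO it stood at 111 CPM (103 to 120) in fibroblasts, 19.6 CPM (17.1 to 22.4) in macrophages and 2.96 CPM (2.63 to 3.33) in cancer barcodes. In KPCA_FSTKO_hFSTL3 the same classes gave 164 CPM (141 to 190), 19.6 CPM (14.6 to 25.8) and 1.70 CPM (0.954 to 2.81). The fibroblast level was 37.6 times the cancer level (32.7 to 43.3) in the first library and 96.5 times (57.0 to 176) in the second. Fibroblast barcodes made up 5.21% of the KPCA_FSTKO barcodes and held 43.9% of its Cxcl1 UMIs, followed by barcodes of several gates with 20.3%, cancer barcodes with 17.9% and macrophages with 13.8%. Among the 20 barcodes with most Cxcl1 in that library, 12 were fibroblasts, and the richest held 73 of its 39681 UMIs as Cxcl1.

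Cxcl5 was shared by cancer and fibroblast barcodes. In KPCA_FSTKO it gave 26.7 CPM (25.6 to 27.7) in cancer barcodes and 25.0 CPM (21.3 to 29.3) in fibroblasts, levels that did not differ beyond counting error, with a fibroblast over cancer ratio of 0.939 (0.794 to 1.10). In macrophages it was 19.8-fold lower than in cancer barcodes (11.96 to 35.4), at 1.35 CPM. Cancer barcodes held 78.6% of its UMIs, where they held 67.3% of all UMIs. Cxcl15 was found mainly in cancer barcodes of KPCA_FSTKO, with 629 of 820 UMIs (76.7%) and 6.58 CPM (6.07 to 7.11), while barcodes of several gates held 132 UMIs and ungated ones 51. The 3 UMIs of the neutrophil barcodes gave 8.66 CPM (1.79 to 25.3), which did not differ from the cancer level beyond counting error. Cxcl15 stood at 0.642 CPM (0.175 to 1.64) in fibroblasts and had 0 of 11119297 UMIs in macrophages, at least 24.4-fold lower than in cancer barcodes. Of the 20 barcodes with most Cxcl15, 16 were cancer barcodes and 3 passed several gates, and the richest held 40 UMIs. In the KPCA_FSTKO_hFSTL3 library Cxcl15 had 2 UMIs in all, both in barcodes of several gates.

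Set against the whole gene list, the members past 2-fold in macrophages over cancer barcodes of KPCA_FSTKO were Cxcl1, Cxcl2 and Cxcl3 upward (16.6% of 13219 genes) and Cxcl5 and Cxcl15 downward (31.3%). In fibroblasts over cancer barcodes Cxcl1 was higher (14.2% of 13006 genes), and Cxcl3 and Cxcl15 were lower (14.8%). In fibroblasts over macrophages Cxcl1 and Cxcl5 were higher, by 5.67-fold (4.86 to 6.64) and 18.6-fold (10.9 to 34.0), where 20.6% of 10173 genes were higher, and Cxcl2 and Cxcl3 were lower, by 11.3-fold (10.3 to 12.5) and 19.4-fold (10.1 to 42.9), where 15.9% were lower. The counts of members only describe where each was found, since these shares of all genes are large. In KPCA_FSTKO_hFSTL3, Cxcl2 was again higher in macrophages than in cancer barcodes, by 11.4-fold (10.4 to 12.4), where 18.1% of genes were higher and 24.7% lower, and the value in KPCA_FSTKO was 8.79-fold (8.54 to 9.05). Fibroblasts of that library had 5.66-fold (4.04 to 7.90) more Cxcl5 than cancer barcodes and 96.5-fold more Cxcl1 (12.2% of genes higher), and their Cxcl2 was 2.56-fold lower (1.82 to 3.73), where 19% of genes were lower. Against macrophages of that library their Cxcl1 was 8.39-fold higher (6.12 to 11.7), where 13.8% of genes were higher, and their Cxcl2 29.1-fold lower (20.8 to 42.1), where 22.3% were lower.

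**Figure D1:**
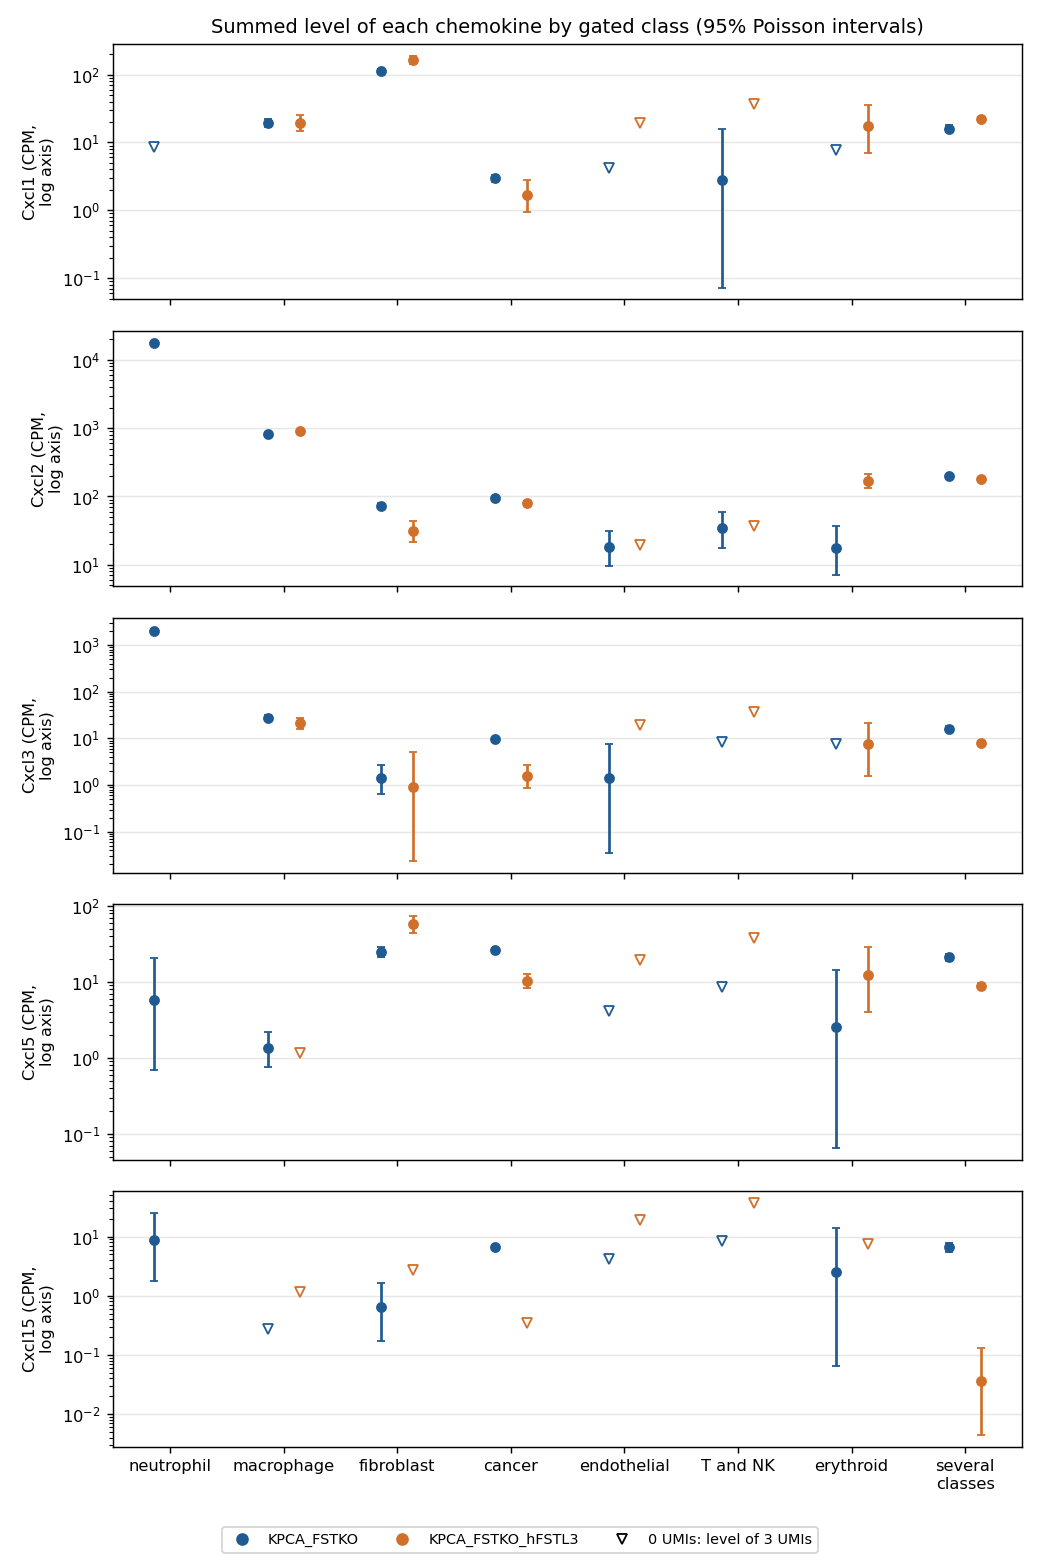
Summed level of each chemokine in CPM (log axis) by gated class, with blue points for KPCA_FSTKO and orange points for KPCA_FSTKO_hFSTL3; bars are 95% Poisson intervals and open triangles mark the level of 3 UMIs where a class had 0. Cxcl2 and Cxcl3 peak in neutrophils at 17527 and 2029 CPM, Cxcl1 in fibroblasts at 111 and 164 CPM, and Cxcl15 has no counted UMI in cancer barcodes of KPCA_FSTKO_hFSTL3.

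Because most RNA came from cancer barcodes, a class with a low level could still hold many of a member's molecules. Cancer barcodes held 29.0% of the Cxcl2 UMIs of KPCA_FSTKO, nearly as much as macrophages with 29.7%, at a level 8.79-fold below theirs. Cancer barcodes also held the largest share of Cxcl3, at 35.1%, ahead of neutrophils with 27.1% and macrophages with 12.04%. In KPCA_FSTKO_hFSTL3 barcodes of several gates held 81.4% of Cxcl1, 71.8% of Cxcl2, 81.1% of Cxcl3 and 74.2% of Cxcl5, where they held 78.6% of all UMIs, so the source of most molecules cannot be read from that library.

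**Figure D2:**
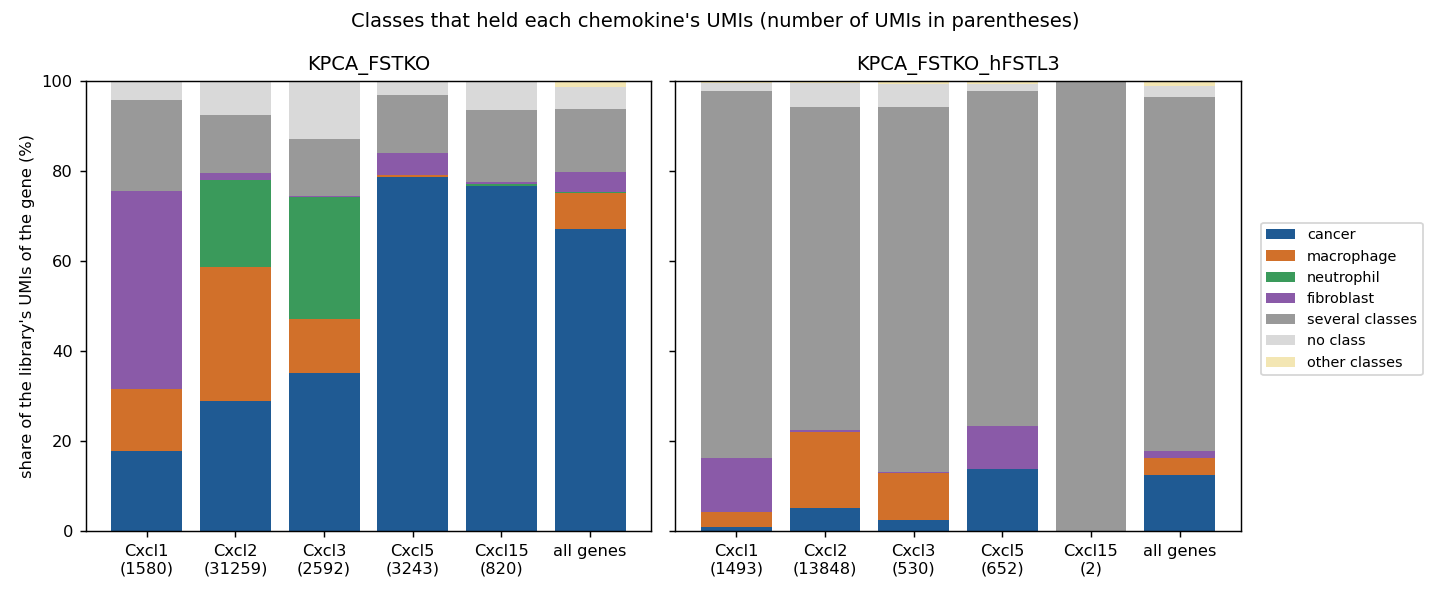
Share of each chemokine's UMIs (%) held by the gated classes in the 2 libraries, with the number of UMIs under each gene and the share of all UMIs as the last bar. In KPCA_FSTKO fibroblasts hold 43.9% of Cxcl1 and neutrophils 19.4% of Cxcl2 and 27.1% of Cxcl3, and in KPCA_FSTKO_hFSTL3 barcodes of several gates hold most of every member.

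The order of classes by the share of barcodes with at least 1 UMI was not always that of the levels, and depths differed between the classes. Cxcl2 was found in 97 of 102 neutrophil barcodes (95.1%, 88.9 to 98.4) at a median depth of 2687 UMIs, in 58.5% of macrophages at 13278.5 UMIs, in 29.1% of cancer barcodes at 29385 UMIs and in 19.5% of fibroblasts at 17084 UMIs. In T and NK barcodes, which should lack these mRNAs, it was found in 2 of 47 (4.26%, 0.520 to 14.5) at a median of 5333 UMIs. With each barcode thinned to 1000 UMIs the shares were 93% in neutrophils, 30.1% in macrophages, 4.58% in cancer barcodes, 4.82% in fibroblasts and 2.13% in T and NK barcodes, so only the first pair stood clear of the T and NK level. Thinning left out 2 neutrophil barcodes, 1 macrophage and 1 cancer barcode. Cxcl3 was found in 45 of 102 neutrophils (44.1%, 34.3 to 54.3) and in 13.9% of cancer, 8.84% of macrophage and 1.70% of fibroblast barcodes, but in 0 of 47 T and NK barcodes, which allows up to 6.38%. At 1000 UMIs each the Cxcl3 shares were 40% in neutrophils, 2.02% in macrophages and 0.654% in cancer barcodes, so the order of macrophages and cancer barcodes turned round and became that of the levels. Cxcl1 was found in 20.4% of fibroblasts (16.3 to 25.0), 6.69% of macrophages, 2.16% of cancer barcodes and 1 of 47 T and NK barcodes (2.13%), and the cancer share is not above the latter. Cxcl5 was found in 30.0% of cancer barcodes and 12.7% of fibroblasts, and Cxcl15 in 7.38% of cancer barcodes, with 0 of 47 T and NK barcodes for each. At 1000 UMIs Cxcl5 was found in 1.90% of cancer barcodes and 1.98% of fibroblasts, and Cxcl1 in 7.37% of fibroblasts, 1.77% of macrophages and 0.131% of cancer barcodes.

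In the KPCA_FSTKO_hFSTL3 library the background was higher. Only 7 T and NK barcodes were gated, with 0 UMIs of any member, which allows a share of up to 42.9%. Erythroid barcodes, which also should lack these genes, had Cxcl2 in 48 of 113 (42.5%) at a median of 3015 UMIs and at 171 CPM (133 to 217), against 6 of 85 (7.06%) and 17.9 CPM (7.19 to 36.9) in KPCA_FSTKO. The Cxcl2 share of cancer barcodes in that library, 34.7% at 39279 UMIs, and their level of 80.1 CPM (74.3 to 86.2) did not exceed these erythroid values. Erythroid barcodes are not an equal reference, since they held the acinar genes at a median of 6902 CPM, against 261 CPM in cancer barcodes. A single cancer barcode held 256 of the 705 Cxcl2 UMIs, where no erythroid barcode held more than 5. The part of RNA from other cells in the cancer Cxcl2 was not tested. The Cxcl2 level of the macrophages of that library, 909 CPM (873 to 947), and the Cxcl1 level of its fibroblasts, 164 CPM, lay above the erythroid levels of 171 and 17.4 CPM (6.99 to 35.8). Cxcl1 at 19.6 CPM and Cxcl3 at 21.1 CPM in its macrophages lay inside the erythroid intervals (1.54 to 21.8 CPM for Cxcl3) of that library. For each 100 Cxcl2 UMIs its erythroid barcodes held 10.1 Cxcl1 (3.93 to 22.0), 4.35 Cxcl3 (0.875 to 13.2) and 7.25 Cxcl5 UMIs (2.28 to 17.7), and the barcodes of several gates held 12.2 (11.5 to 13.0), 4.32 (3.92 to 4.76) and 4.87 (4.43 to 5.33). The values of the barcodes of several gates thus lay within the erythroid intervals. In gated macrophages the ratios were 2.15, 2.32 and 0, and in gated fibroblasts Cxcl1 reached 526 (363 to 784) and Cxcl5 185 (120 to 290) for each 100 Cxcl2 UMIs.

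Within a class the members were carried by few barcodes. For comparison, had the 9071 Cxcl2 UMIs of the KPCA_FSTKO cancer barcodes been spread by depth, 2652 of the 3061 barcodes would have held at least 1, but 891 did. The 5% of barcodes with most Cxcl2, 154 barcodes, held 79.2% of it, and the richest held 499 UMIs, 0.619% of its RNA. Cxcl1 was rarer, with 283 UMIs in 66 cancer barcodes where an even spread gives 267. The corresponding numbers were 427 barcodes against 757 for Cxcl3, 919 against 1599 for Cxcl5 and 226 against 553 for Cxcl15. The top 154 barcodes held 69.5% of Cxcl3, 56.7% of Cxcl5 and 88.6% of Cxcl15. This share is bound to be high for a gene found in few barcodes, such as Cxcl15 with 226, and does not rank the members by spread. Set against the number under an even spread, the order of Cxcl2 and Cxcl15 was the other way, at 0.336 for Cxcl2 and 0.409 for Cxcl15. The 154 barcodes richest in Cxcl2 held a median of 0 macrophage and 0 neutrophil markers, and their macrophage markers summed to 27.0 CPM against 36.0 CPM in the remaining cancer barcodes. The 154 richest in Cxcl15 held fibroblast markers at 849.8 CPM against 520.1 CPM in the rest, and the part of that RNA in the result was not tested. The median depth of the 154 barcodes richest in Cxcl2 was 45001 UMIs against 28727 in the rest. For those richest in Cxcl15 it was 28178 UMIs against 29435.

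Macrophages were more even for Cxcl2, with 463 barcodes against 788 under an even spread and a Fano factor (variance over mean, 1 for a Poisson count) of 39.9, and a median of 11 UMIs in barcodes that had any. Their Cxcl1 was held by 53 barcodes against 186, and their Cxcl3 by 70 against 249.6. In fibroblasts 693 Cxcl1 UMIs lay in 72 of 353 barcodes, against 273 under an even spread, and 18 barcodes held 66.4%. Neutrophils stood out for Cxcl2, with 97 barcodes against 102 and a median of 46 UMIs where found, yet their Cxcl3 lay in 45 barcodes against 101. The top 6 neutrophil barcodes held 41.8% of that Cxcl3 and 21.2% of the Cxcl2.

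Barcodes of several gates in KPCA_FSTKO_hFSTL3 were nearly even in their spread: 2421 held Cxcl2 where a spread by depth gives 2488, and the corresponding numbers were 870 and 937 for Cxcl1, 388 and 390.4 for Cxcl3, and 420 and 434 for Cxcl5. Their Fano factors for Cxcl2, Cxcl1, Cxcl3 and Cxcl5 were 2.45, 3.04, 1.10 and 1.199, against 55.9 for Cxcl2 in the 676 barcodes of several gates in KPCA_FSTKO. The barcode with most Cxcl2 in that library lay outside every gate, with 302 of its 3931 UMIs (7.68%) as Cxcl2, 20 as Cxcl3 and 1 of 10 neutrophil markers found. Among the barcodes of several gates, the 23 that also passed the neutrophil gate held Cxcl2 at 202 CPM (170 to 238), close to the 187 CPM (183 to 191) of the 1711 that passed the macrophage but not the neutrophil gate. In KPCA_FSTKO the 18 such barcodes with the neutrophil gate held 1274 CPM (1184 to 1368) and the 61 with the macrophage gate 501 CPM (470.2 to 533).

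**Figure D3:**
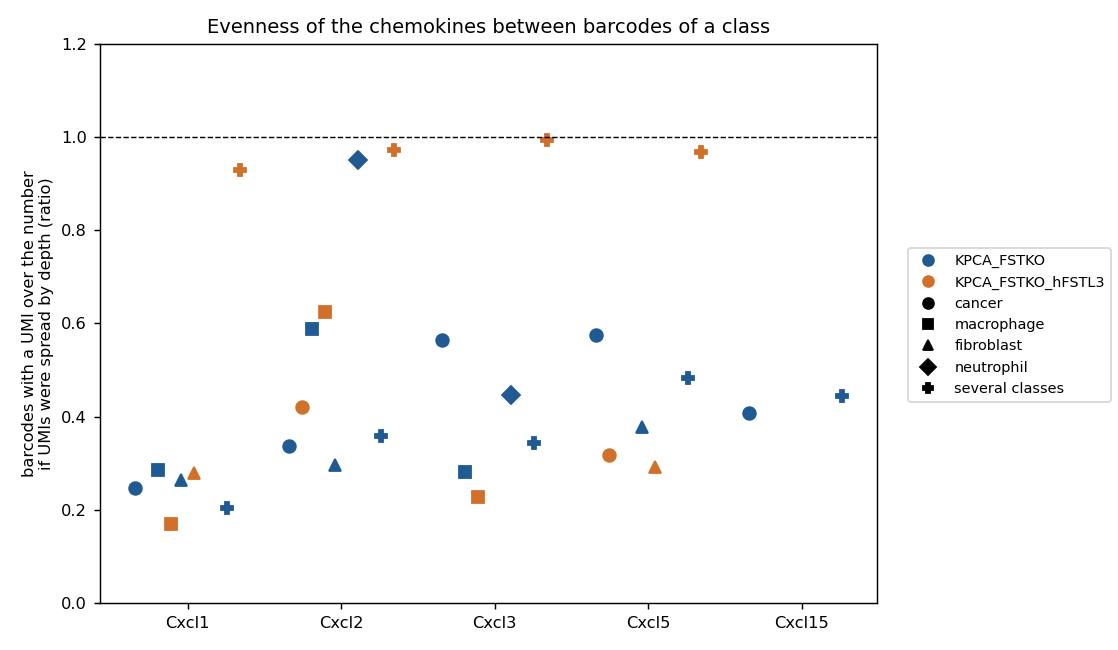
Number of barcodes with a UMI divided by the number under a spread by depth (a ratio, 1 at the dashed line) for each chemokine, by class (marker shape) and library (blue, KPCA_FSTKO; orange, KPCA_FSTKO_hFSTL3), for sets with at least 50 UMIs. The gated classes drawn (cancer, macrophage, fibroblast and neutrophil) lie well under 1 except Cxcl2 in neutrophils at 0.951. The barcodes of several gates of KPCA_FSTKO_hFSTL3 lie between 0.929 and 0.994.

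Pairs of members were compared within barcodes thinned to 5000 UMIs, beside the number that the product of their shares gives. In 2941 cancer barcodes of KPCA_FSTKO, Cxcl1 and Cxcl2 occurred together in 14 barcodes where the product gives 2.67. Cxcl3 and Cxcl15 occurred together in 12 against 2.82, Cxcl3 and Cxcl5 in 30 against 11.5, Cxcl5 and Cxcl15 in 14 against 6.43, Cxcl2 and Cxcl3 in 27 against 16.3, and Cxcl2 and Cxcl5, the most frequent pair, in 61 against 37.1. Numbers near the product were found for Cxcl2 and Cxcl15, with 8 against 9.09, and for Cxcl1 and Cxcl5, with 2 against 1.89. In 326 fibroblasts Cxcl1 and Cxcl2 were together in 20 against 5.11, and in 755 macrophages in 28 against 16.9. In the 2593 barcodes of several gates of KPCA_FSTKO_hFSTL3, Cxcl1 and Cxcl2 were together in 169 against 157, a ratio of 1.08. Barcodes are not replicates, and these counts describe the 2 libraries.

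Other genes were then compared between barcodes of a class with and without a UMI of each member. Cancer barcodes of KPCA_FSTKO with Cxcl2 had 10.6-fold more Cxcl1 (7.64 to 15.1) and more of the NF-kB feedback inhibitors Tnfaip3, at 3.31-fold (3.07 to 3.57), and Nfkbia, at 2.72-fold (2.65 to 2.80). These were the 2 of 14 measured NF-kB and Nfkbiz response genes past 2-fold, where 0.295% of 12535 genes were higher. The barcodes with Cxcl2 were deeper, with a median of 36147 UMIs against 27393.5, as were those with Cxcl1, at 34049.5 against 29275. CPM scales for the total only, and the part of depth in these ratios was not tested. The list's median was 0.42 on the log2 scale against -0.03 over all genes. Cancer barcodes with Cxcl1 had 7.91-fold more Cxcl2 (7.48 to 8.36), and 5 of the 14 genes were past 2-fold (1.34% of all genes): Icam1 at 3.79-fold, Tnfaip3 at 3.70-fold, Nfkbia at 3.34-fold, Nfkbiz at 2.32-fold and Lcn2 at 2.04-fold. Zfp36, the mRNA decay factor, was 2.49-fold higher (2.34 to 2.65) in the same barcodes. The 154 cancer barcodes ranked highest for Cxcl1, of which 66 held a UMI, had fibroblast markers at 780.1 CPM against 525 CPM in the rest and macrophage markers at 49.5 CPM against 34.6 CPM, and the part of RNA from these classes, which held more Cxcl1, was not tested. Cd74, a gene of antigen-presenting cells named here after its values were seen, was 2.70-fold higher (2.40 to 3.04) in cancer barcodes with Cxcl2. No immediate early or heat shock gene of the 10 listed was past 2-fold in the splits by Cxcl1, Cxcl2, Cxcl3, Cxcl5 or Cxcl15. Their median log2 ratio was 0.39 in the split by Cxcl1, 0.27 by Cxcl2, 0.38 by Cxcl15, -0.17 by Cxcl3 and -0.09 by Cxcl5. Over all genes the medians lay between -0.04 and 0.01. The tumors were digested for single cell suspension, and the part of dissociation in these values was not tested.

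Cancer barcodes with Cxcl3 or Cxcl15 showed other genes. Those with Cxcl15 had 5.32-fold more Lcn2 (4.78 to 5.92), the siderophore-binding lipocalin, 3.90-fold more Cxcl3 (3.34 to 4.53) and 2.68-fold more Cxcl5 (2.42 to 2.96), while Tnfaip3 and Cxcl2 ratios were 0.968 and 0.883. Those with Cxcl3 had 4.75-fold more Lcn2 (4.30 to 5.24), 3.84-fold more Cxcl15 and 3.48-fold more Cxcl5, with a Tnfaip3 ratio of 0.944. Lcn2 was the single NF-kB and Nfkbiz response gene past 2-fold in each of these splits (0.399% of genes for Cxcl3 and 1.43% for Cxcl15). In the split by Cxcl5, 2 of 14 were past 2-fold (0.183% of genes), Lcn2 at 2.82-fold (2.55 to 3.12) and Icam1, the leukocyte adhesion molecule, at 2.19-fold (1.88 to 2.56). Lcn2 went the other way in the split by Cxcl2, at 0.752. Median depth with and without a UMI was 37857 and 28252 for Cxcl3, 36836 and 26479.5 for Cxcl5, and 28715 and 29463 for Cxcl15. The part of depth in these ratios was not tested.

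**Figure D4:**
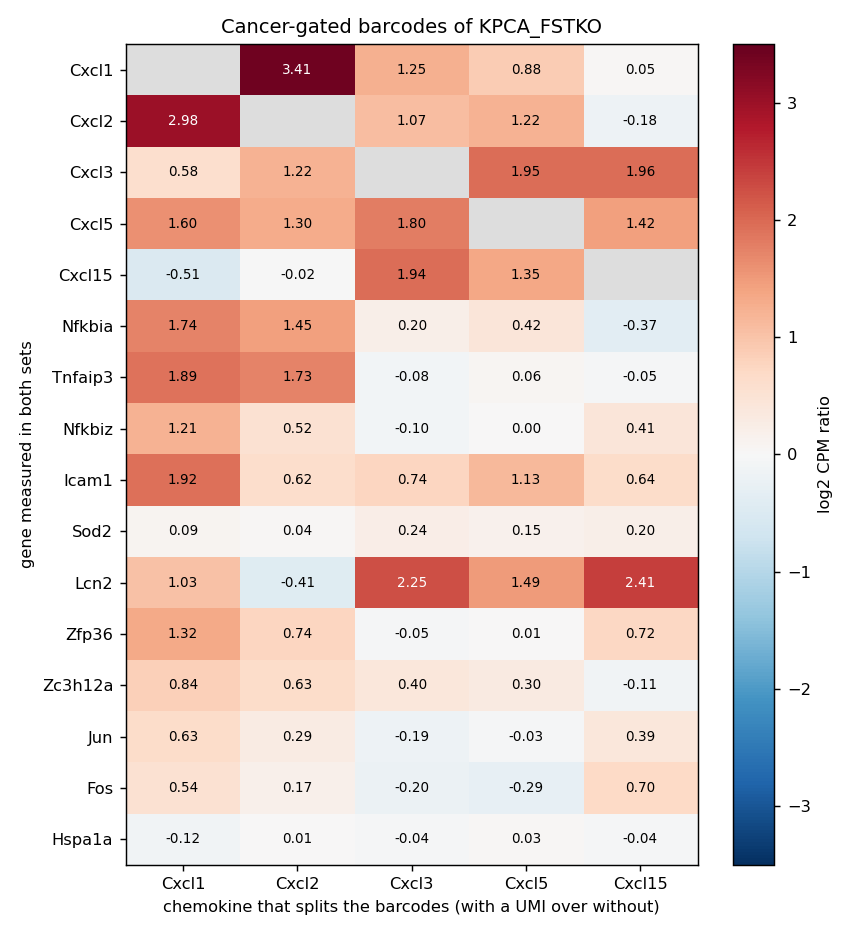
Log2 CPM ratio of the genes in rows between cancer-gated barcodes of KPCA_FSTKO with and without a UMI of the chemokine in each column; red is higher with the chemokine and grey marks a gene against itself. Cxcl1 and Cxcl2 go with Nfkbia (1.74 and 1.45) and Tnfaip3 (1.89 and 1.73), and Cxcl3, Cxcl5 and Cxcl15 with each other and with Lcn2 (2.25, 1.49 and 2.41).

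In macrophages of KPCA_FSTKO, barcodes with Cxcl2 had 17.2-fold more Cxcl1 (8.21 to 43.3), 4.52-fold more Cxcl3 (3.17 to 6.62), 3.58-fold more Il6 (2.57 to 5.08), 3.24-fold more Ptgs2 (2.67 to 3.98) and 3.09-fold more Il1b (2.65 to 3.63). Of the 15 NF-kB and Nfkbiz response genes measured, 3 were past 2-fold, and of 9 inducing cytokines and receptors 2 were, Il1b and Il1a, where 0.676% of 8140 genes were higher. Hspa1b, a heat shock gene, was lower at 0.488 (0.394 to 0.604; 0.7% of genes lower). Macrophages of KPCA_FSTKO_hFSTL3 with Cxcl2 had 2.53-fold more Tnfaip3 (1.76 to 3.73) and 2.32-fold more Nfkbia (1.92 to 2.82), as 2 of 9 genes past 2-fold (1.11% of 4147 genes). The heat shock gene Hspa1a was lower there as well, at 0.0934 (0.0546 to 0.153; 1.04% of genes lower). In cancer barcodes of that library Nfkbia was the single gene of 11 past 2-fold beside Cxcl2, at 2.70-fold (2.48 to 2.94; 0.363% of genes). The Cxcl2 of that class was not above the level of the erythroid barcodes, which held more acinar RNA.

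Fibroblasts of KPCA_FSTKO with Cxcl1 had the broadest change: 8 of 16 NF-kB and Nfkbiz response genes were past 2-fold, where 0.698% of 7306 genes were, and the list's median log2 ratio was 1.00 against -0.13 over all genes. Csf3, the granulocyte colony-stimulating factor, was 5.27-fold higher (3.79 to 7.39), Icam1 2.96-fold (2.32 to 3.77), Il6 2.87-fold (2.46 to 3.34), Tnfaip3 2.61-fold (2.25 to 3.04) and the acute phase gene Saa3 2.30-fold (2.22 to 2.38). Fos, an immediate early gene, was 2.08-fold higher (1.97 to 2.19). The same barcodes held 5.54-fold more Cxcl2 (4.56 to 6.75) and 4.16-fold more Cxcl5 (2.99 to 5.80). They were also deeper, with a median of 19602 UMIs against 16379, and the part of depth was not tested. In the split by Cxcl2, 3 of 16 genes were past 2-fold (0.63% of genes), led by Csf3 at 9.24-fold (6.39 to 13.6). In the split by Cxcl5, 7 of 16 genes were past 2-fold (0.78% of genes), led by Lcn2 at 3.07-fold (2.54 to 3.69). Fibroblasts with most Cxcl1 held more RNA of the neutrophil marker list, 284 CPM in the top 18 against 155 CPM in the rest, as did those with most Cxcl5, 320.5 CPM against 157 CPM, with Cd74 2.57-fold higher (2.15 to 3.07) in the split by Cxcl5. The part of this RNA in these values was not tested. Neutrophils with Cxcl3 had 3.22-fold more Cxcl2 (3.05 to 3.40), 2.40-fold more Tnf (1.67 to 3.49) and 2.48-fold more Nfkbia (2.14 to 2.88), in a split where 8.36% of only 538 genes were higher. Cd74 had 78 UMIs in the neutrophil barcodes with Cxcl3 and 4 in those without, a ratio of 32.1 (12.04 to 121), and its part in these values was not tested.

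Cxcr2, the receptor of these ligands, was found where Cxcl2 was highest. Neutrophil barcodes held 162 of the 223 Cxcr2 UMIs of KPCA_FSTKO, at 467 CPM (398 to 545), against 0.167 CPM in cancer barcodes, 0.180 CPM in macrophages and 0 UMIs in fibroblasts. In KPCA_FSTKO_hFSTL3 the whole library held 45 Cxcr2 UMIs. Cxcr1 had 4 and 2 UMIs, and Ackr1, the decoy receptor that binds these chemokines, 14 and 23 UMIs in the libraries, too few to describe by class.

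Of the inducers, Il1b stood at 8117 CPM (7820 to 8423) in neutrophils and 111 CPM in macrophages of KPCA_FSTKO, with 1.00 CPM in cancer barcodes and 1.28 CPM in fibroblasts. Tnf was 369 CPM in neutrophils, 14.8 CPM in macrophages and 0.115 CPM in cancer barcodes. Il1r1, the receptor of interleukin 1, was highest in fibroblasts, at 309.5 CPM against 21.5 CPM in cancer barcodes and 11.9 CPM in macrophages, and at 655 CPM in fibroblasts of KPCA_FSTKO_hFSTL3. Il17a, whose product raises these chemokines in many epithelia, had 0 UMIs in KPCA_FSTKO and 2 in KPCA_FSTKO_hFSTL3. The receptor subunit Il17ra was present in both, at 8.89 and 9.43 CPM in cancer barcodes.

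The 2 libraries were then compared within the gated classes, to see how the members stood with and without the human FSTL3 clone. In cancer barcodes, 3 of 5 members were lower by over 2-fold in KPCA_FSTKO_hFSTL3 and none was higher, where 6.38% of 12736 genes were lower and 3.29% higher. Cxcl15 fell from 629 UMIs (6.58 CPM) to 0 of 8801179 UMIs, at least 19.3-fold lower. Cxcl3 was 5.98-fold lower (3.54 to 10.98), at 1.59 CPM against 9.51 CPM, and Cxcl5 2.61-fold lower (2.11 to 3.25), at 10.2 CPM against 26.7 CPM. The log2 ratios of Cxcl1 and Cxcl2 were -0.80 (-1.65 to -0.05) and -0.24 (-0.36 to -0.13). None of the 5 cancer levels in KPCA_FSTKO_hFSTL3 was above the erythroid level of that library, which was 12.4 CPM (4.03 to 29.0) for Cxcl5 and 7.45 CPM (1.54 to 21.8) for Cxcl3. The erythroid barcodes held more acinar RNA than the cancer barcodes, at a median of 6902 CPM against 261 CPM.

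These cancer ratios depended on which barcodes were summed. A single barcode held 256 of the 705 Cxcl2 UMIs (36.3%) and 54 of the 90 Cxcl5 UMIs (60%) of the KPCA_FSTKO_hFSTL3 cancer class, and without the richest barcode of each library the log2 ratios became -0.80 for Cxcl2, -2.63 for Cxcl5 and -1.68 for Cxcl1. With barcodes of several gates counted as cancer too, Cxcl1 and Cxcl2 turned upward, to 2.06 and 0.62, and Cxcl3 was at -0.56, under 2-fold. Over all filtered barcodes without a gate the ratios were 0.95 for Cxcl1, -0.15 for Cxcl2, -1.26 for Cxcl3, -1.29 for Cxcl5 and -7.65 (-10.7 to -5.79) for Cxcl15, with 3 members lower and none higher past 2-fold, where 7.93% of 15205 genes were lower and 3.87% higher. Cxcl15 was lower under each alternative that gave a value, and its 2 UMIs in the whole second library stood against 820 in the first. The values of acinar RNA, depth and mixed barcodes differ between the libraries as given above. The alternatives below include cancer sums without barcodes over 1000 CPM of acinar markers. This kept 3057 of 3061 cancer barcodes in KPCA_FSTKO and 168 of 222 in KPCA_FSTKO_hFSTL3. No alternative changed the sign of a ratio past 2-fold, and the part of each of these differences was not tested. The graft, the clone and the library cannot be told apart.

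Summed levels of the members in macrophages differed little between the libraries. Cxcl1, Cxcl2 and Cxcl3, the 3 members with at least 100 UMIs, had log2 ratios of 0.00 (-0.47 to 0.44), 0.13 (0.06 to 0.19) and -0.41 (-0.85 to 0.01), and none was past 2-fold, where 1.62% of 8729 genes were higher and 1.73% lower and the median of all genes was 0.10. The Cxcl1 and Cxcl3 values rested on few barcodes of KPCA_FSTKO_hFSTL3. Its 51 macrophage UMIs of Cxcl1 lay in 7 barcodes, 22 of them in a single one. Its 55 of Cxcl3 lay in 10 barcodes, with 18 in the richest and 18 in the next. Neither level stood clear of the erythroid level of that library. In fibroblasts Cxcl5 was 2.31-fold higher (1.70 to 3.12), at 57.9 CPM against 25.0 CPM (1.62% of 7857 genes higher). Cxcl2 was 2.36-fold lower (1.66 to 3.45), at 31.2 CPM against 73.7 CPM (3.37% lower), and Cxcl1 had a log2 ratio of 0.56 (0.32 to 0.80). The fibroblast class of KPCA_FSTKO_hFSTL3 had 52 barcodes, of which 9 held Cxcl5 and 1 held 44.4% of it (28 of 63 UMIs). A single barcode likewise held 16 of its 34 Cxcl2 UMIs. Without the richest barcode of each library the log2 ratio of Cxcl5 was 0.55, no longer past 2-fold, against 1.21 with it, and those of Cxcl2 and Cxcl1 were -1.91 and 0.26.

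**Figure D5:**
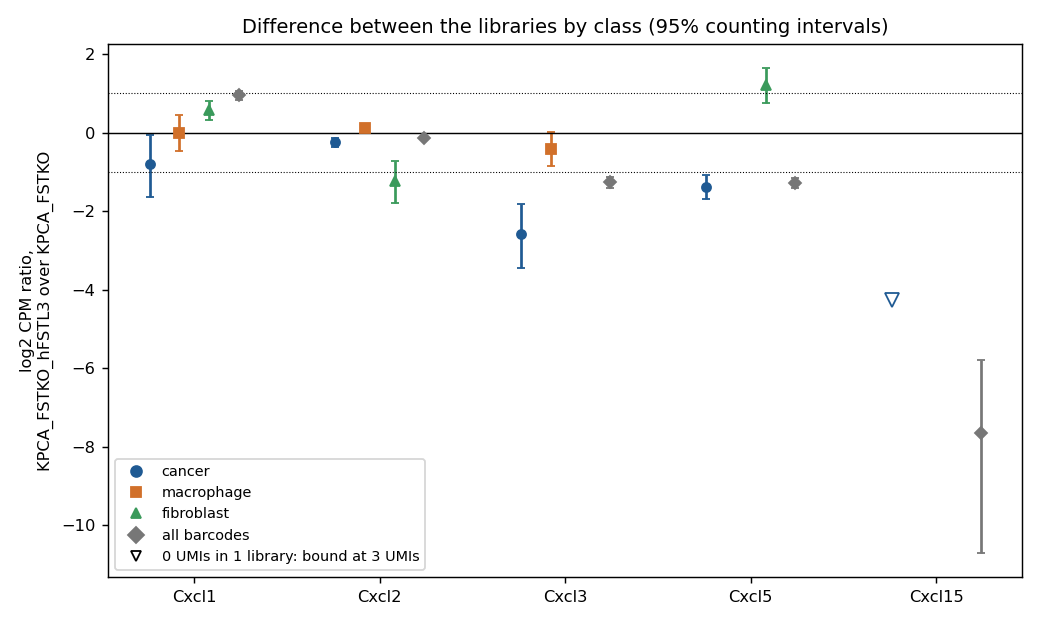
Log2 CPM ratio of KPCA_FSTKO_hFSTL3 over KPCA_FSTKO for each chemokine in cancer, macrophage and fibroblast barcodes and in all filtered barcodes; bars are 95% counting intervals, dotted lines mark 2-fold, and the open triangle is a bound set at 3 UMIs. Cxcl3, Cxcl5 and Cxcl15 lie under -1 in cancer barcodes, and the macrophage values lie between -0.41 and 0.13.

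The pathway lists moved in few genes between the libraries. For comparison, 6.38% of all genes with at least 100 UMIs were lower past 2-fold and 3.29% higher in cancer barcodes. These shares were 1.73% and 1.62% in macrophages and 3.37% and 1.62% in fibroblasts. In cancer barcodes 2 of 14 NF-kB and Nfkbiz response genes were lower by over 2-fold, Lcn2 from 16.8 to 2.16 CPM and Icam1 from 7.05 to 0.568 CPM, and the list's median log2 ratio was 0.18 against 0.00 over all genes. Of 7 inducing cytokines and receptors only Tlr2 was past 2-fold, at 2.52-fold higher (1.51 to 4.03), none of 4 decay regulators was, and of 10 immediate early and heat shock genes Hspa1a was lower at 0.431 (0.370 to 0.499). In macrophages Lcn2 and Saa3 were lower, at 0.197 and 0.224, and Icam1 was higher, at 2.06, among 15 NF-kB and Nfkbiz response genes, and Tnf and Il1r1 were lower, at 0.492 and 0.453, among 9 inducers. In fibroblasts Csf3 was lower, from 25.8 to 1.84 CPM, as was Lcn2, from 82.8 to 34.0 CPM, among 16 genes. Il1r1 was higher at 2.12 (1.94 to 2.31) and Tlr4 lower at 0.471 (0.245 to 0.829) among 5 inducers, and Atf3 was higher at 2.55 (2.11 to 3.07) among 10 immediate early and heat shock genes. Lcn2 was thus past 2-fold downward in cancer, macrophage and fibroblast barcodes, and it was also among the genes that were higher beside Cxcl3 and Cxcl15 inside the cancer class of KPCA_FSTKO.

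Across the 10 sets of at least 50 barcodes (classes of both libraries), the genes whose log2(CPM + 1) was most like a member among 13933 genes were Pram1, Mmp9 and Mpzl3 for Cxcl2, with Pearson r of 0.99, 0.98 and 0.98. For Cxcl1 they were Cxcl13, Panx1 and Eya4 (0.98, 0.97 and 0.96), and for Cxcl5 Gpr39, Cxadr and Thbs3 (0.97, 0.96 and 0.96). Cxcl3 was most like E230032D23Rik, Gm28981 and Gm20234 (0.98, 0.97 and 0.97), and Cxcl15 like Gm49504, 4930579C12Rik and Gm12381 (0.94, 0.91 and 0.91). Between members, Cxcl2 and Cxcl3 had an r of 0.96, Cxcl1 and Cxcl5 of 0.47, and Cxcl1 and Cxcl2 of -0.09. The points share 2 libraries and their free RNA, and 1 of them is the neutrophil set.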

How the data were processed

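Omental tumors were dissociated and profiled with a 10x Genomics single cell 3′ kit, and the authors deposited raw UMI counts per gene and barcode, with no normalization, from Cell Ranger (3.1.0 in the submitters' processing notes, 7.2.0 in the matrix headers) on mm10. The study's filters, a mitochondrial share under 20% and over 200 and under 8000 genes, were not applied in the files and were applied here; this kept 6777 of 7582 and 4041 of 4244 barcodes. The 142160061 and 69751304 UMIs left set the counting precision.

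A marker counted as found at 2 UMIs. A barcode was gated to a class with at least 40% of its markers found and the runner-up class at no more than 50% of the first; 258 of 3061 cancer barcodes of KPCA_FSTKO and 32 of 222 of KPCA_FSTKO_hFSTL3 had exactly the 4 markers needed, and 276 and 108 ungated barcodes had 1 fewer. Marker lists were written down before the gate rule, which was set after the files were seen. The members, the gene lists and the comparisons were chosen with earlier results of these data known. No doublet removal is described in the methods, and none was done; Scrublet (scanpy 1.11.5) called 90 barcodes in KPCA_FSTKO and 1 in KPCA_FSTKO_hFSTL3, where it did not work.

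UMIs were summed per class and library and given as CPM with exact Poisson intervals, shares with Clopper-Pearson intervals and ratios with conditional binomial intervals, all at 95%, with a floor of 3 counts per class for 0 UMIs. A gene counted as past 2-fold with at least 100 UMIs over both sides and a CPM ratio of at least 2 in either direction. This rule was tried on simulated counts without spread between barcodes, which do not test it where few barcodes hold most UMIs. No p-value was computed. All members, the genes of the fixed pathway lists past that rule or with most UMIs, and the 3 genes most like each member were named; single barcodes were picked by their values. The alternatives used other filters, gates, scalings (edgeR 4.0.16 TMM), depths and sets of barcodes. Python 3.11.15, scipy 1.17.1 and R 4.3.3 were used.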

Additional observations from a re-analysis of the deposited data

How the results depend on the processing

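No paired analysis was possible because each genotype had 1 library. Of 122 alternatives to values that answer a comparison, 77 stayed within the limits set for the value, 45 moved past them, and none changed the sign of a ratio past 2-fold. The limits were the counting interval for ratios and shares, and a fixed fold band for the numbers of genes past the size rule. For the log2 ratio between the libraries in cancer barcodes, counting barcodes of several gates gave 2.06 for Cxcl1, 0.62 for Cxcl2 and -0.56 for Cxcl3, all filtered barcodes gave 0.95 for Cxcl1 and -1.26 for Cxcl3, and the mean of CPM over barcodes gave 0.78 for Cxcl1, -0.083 for Cxcl2 and -1.74 for Cxcl5. Without the 5% of barcodes richest in the member it was -0.59 for Cxcl2, -3.32 for Cxcl5 and at most -1.14 for Cxcl15. Without filters it was -0.58 for Cxcl2. Without the single richest barcode, an alternative chosen after seeing the data, it was -1.68 for Cxcl1, -0.80 for Cxcl2 and -2.63 for Cxcl5, and in fibroblasts it was 0.26, -1.91 and 0.55, which put Cxcl5 under 2-fold. Cxcl1 had no value without its richest 5%, nor Cxcl15 as a mean of CPM, being 0 in both or 1 of the libraries. With 1 marker more required, neutrophils over macrophages gave 23.3 for Cxcl2 and 85.4 for Cxcl3, and with 1 fewer 61.1 for Cxcl3.

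The fibroblast share of Cxcl1 in KPCA_FSTKO was 40.6% with 1 marker more, 41.3% without filters and 58.0% among barcodes of 1 class, the macrophage share of Cxcl2 27.8%, 27.0% and 37.2%, with 30.3% for 1 marker fewer, and the cancer share of Cxcl3 38.4% without filters and 47.0% among barcodes of 1 class. That last setting, also added after seeing the data, gave 93.6% for Cxcl5 and 98.7% for Cxcl15 in cancer barcodes. Genes past the size rule numbered, for a minimum of 20 UMIs and for a ratio of 1.5, 1021 and 1400 higher and 1314 and 1708 lower in cancer barcodes, 461 and 676 higher and 590 and 409 lower in macrophages, and 409 and 527 higher and 870 and 713 lower in fibroblasts. TMM scaling left 88 higher in macrophages.

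Over 29 levels (a member in a class of a library), 29 fell by more than counting error without the richest 5% of barcodes, a setting that can only lower them, and 25 of 29 shares moved when thinned to 1000 UMIs. What remains limited is the design: 1 library per genotype, 222 cancer, 140 macrophage and no neutrophil barcodes in KPCA_FSTKO_hFSTL3, and free RNA that cannot be taken from the counts. The causes of these shifts were not tested.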
